A study of Mus musculus with 9 samples.

Results

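The genes described here are 37 that mark macrophages in a tumour or report their state. Their probes were found on the array by current symbol or synonym. A probe was kept when 3 or more of the 9 arrays marked its tumour signal as well above background, and where several probes of a gene were kept, the probe with the highest mean signal over both channels stood for it. All 37 genes had a probe, 53 in all. Of these genes 35 were kept, and each of the 35 was well above background in the tumour channel on all 9 arrays. The genes Spi1 and Nos2 were not kept. Of the kept genes, 17 form a pan-macrophage set, carried by macrophages of most kinds, 14 form an activation set, and Csf1, Apoe, Lgmn and Pf4 belong to neither. They were 35 of 13123 named genes and were tested among 26870 probes kept of the 41174 on the array.

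The study asked how melanomas differ when the tumour cells make less or more histamine. Tumours were grown from 3 variants of B16-F10, a mouse melanoma line, that differ in histamine production; HDC stands for L-histidine decarboxylase, which forms histamine from histidine. Production was diminished in HDC-A, unmodified in HDC-M and enhanced in HDC-S, with 6 tumours per group, and RNA of 2 tumours of a group was combined for each array, which gave 3 arrays per group. Each pool was labelled with Cy5 and hybridised beside Cy3-labelled RNA of cultured HDC-M cells, the same reference on every array, with no dye swap. Each group is 1 line variant, so a difference between variants and a difference between histamine levels cannot be told apart. Host strain, sex, age, tumour site and time of growth are not given in the sources used here.

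Macrophages enter tumours as monocytes from the blood or are already in the tissue, and they depend on the receptor Csf1r and its ligand Csf1. They take up antibody-coated particles, lipids and dead cells through Fc, complement and scavenger receptors, and they digest them in lysosomes. Tumour macrophages are often described along a range from inflammatory, with Nos2 and Il1b, to tissue-repairing, with Arg1, Mrc1 and Cd163, although single cells commonly carry genes of both kinds.

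The values below are log2 ratios of tumour over cultured reference unless a difference between groups is named, and triplets are in the order of replicates 1, 2 and 3. Between 58.0% and 69.7% of the spots of an array were bright in Cy5. Log2 ratios over all probes correlated with r from 0.90 to 0.95 between arrays of a group and from 0.86 to 0.92 between arrays of different groups. The array of HDC-M replicate 3, which had the highest share of bright spots, stood apart for the macrophage genes: it held the lowest of the 9 values for 32 of 35 of them, against 15.6% of all probes. The differences from HDC-M of the genes described in full are therefore also given without it, except for those of the pathway and marker lists. The p values measure the spread between pools, and 3 arrays per group limit the precision. In whole-tumour RNA, fewer macrophages and less of an RNA per macrophage cannot be told apart.

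Nearly all macrophage genes kept were brighter in tumours than in cultured melanoma cells. The filter used the tumour channel alone, so a gene read only in the reference could not be kept. In each of the 3 groups 34 of 35 genes had a mean above 0, where 58.4%, 58.8% and 58.4% of all probes did in the same order of groups (HDC-A first, HDC-M second, HDC-S last). By limma's moderated test with Benjamini-Hochberg adjustment, 33 genes were higher in HDC-A tumours than in culture, where 38.9% of all probes were, 31 in HDC-M tumours (34% of all probes) and 33 in HDC-S tumours (38.2%). One gene, Tlr4, was lower in every group, where 26.8%, 23.9% and 26% of all probes were. The median log2 ratio of the 35 genes was 1.84 for HDC-A, 1.27 for HDC-M and 1.89 for HDC-S, beside 0.06, 0.05 and 0.06 over all probes. Without HDC-M replicate 3 the HDC-M median was 1.49, with 34 genes above 0 and 31 passing as higher. For these 2 counts no share of all probes is at hand. With the scanner software's ratios, which equal the authors' value table, the medians were 3.20, 2.84 and 3.10. Csf1 did not pass in any group on all arrays, and Laptm5 and Cd163 did not pass in HDC-M, although a second kept probe of Laptm5 did. These tests set tumours against 1 reference RNA in the other dye, so they leave out the spread of the reference and any dye bias.

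**Figure D1:**
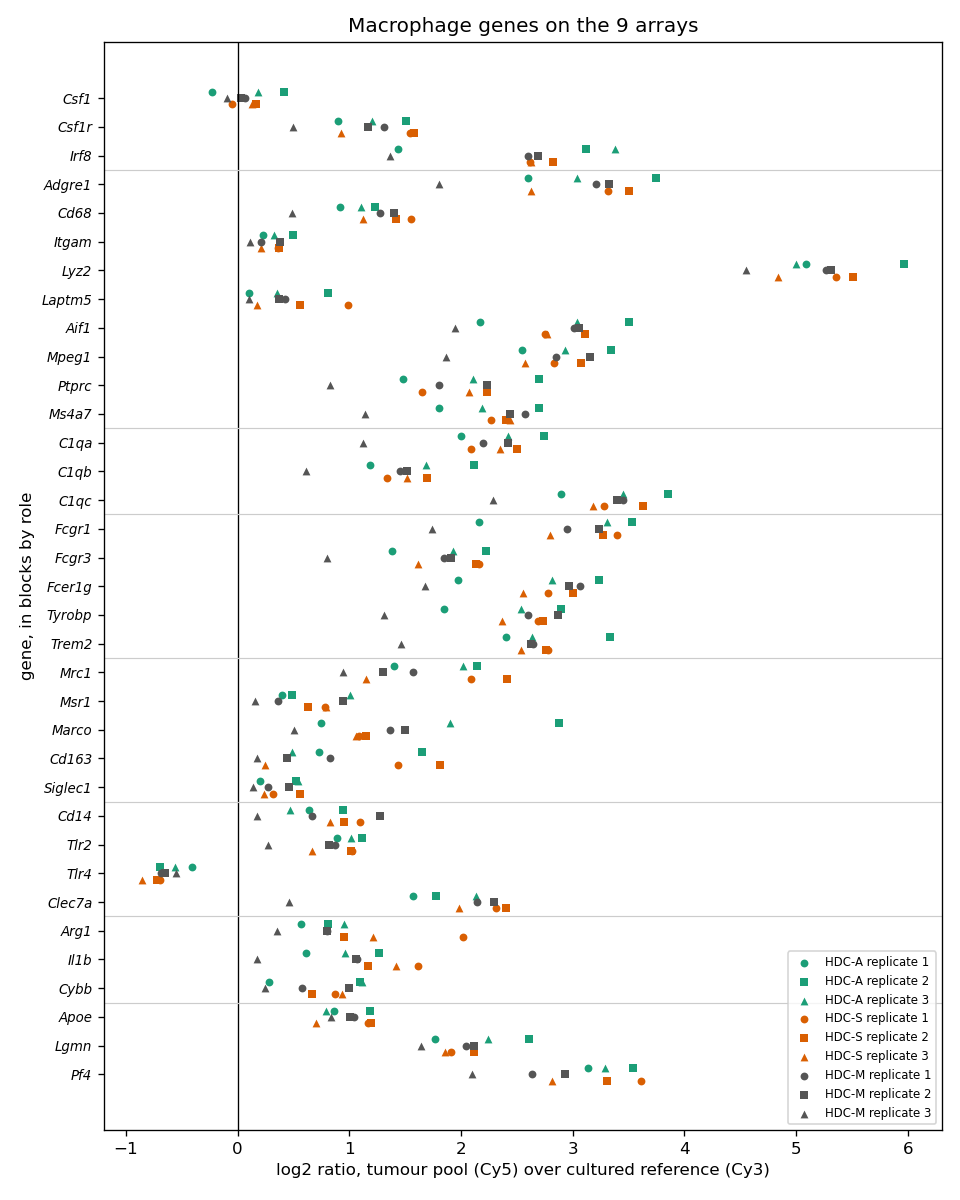
Log2 ratio of tumour (Cy5) over cultured reference (Cy3) for the 35 macrophage genes kept, on the horizontal axis, with genes in blocks by role; colours are the 3 groups, marker shapes the replicates, and each point is 1 array. Tlr4 lies below 0 on all 9 arrays, Csf1 lies around 0, and the triangle of HDC-M replicate 3 is the leftmost point for 32 of the 35 genes.

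Of the lineage genes, the growth factor Csf1 had ratios around 0. Csf1 read -0.23, 0.41 and 0.18 on the HDC-A arrays, 0.07, 0.03 and -0.09 on the HDC-M arrays and -0.05, 0.16 and 0.13 on the HDC-S arrays. Its reference signal stood at 1.55 to 1.85 times the negative control median and above the 95th percentile of these controls on every array. The 3 groups overlapped. With each array centred on its median in place of loess, Csf1 passed as higher than the reference in all 3 groups, with values of 0.43 to 0.58. Without HDC-A replicate 1 the HDC-A mean of Csf1 was 0.30 and passed (adjusted p = 0.0096, limma), against 0.12 with all arrays, and without HDC-A replicate 2 it was -0.03.

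Csf1r, the Csf1 receptor, read 0.90, 1.51 and 1.20 on the HDC-A arrays, 1.31, 1.17 and 0.50 on the HDC-M arrays and 1.55, 1.58 and 0.92 on the HDC-S arrays. The groups overlapped, and the lowest value was that of HDC-M replicate 3. The 2 dimmer probes of Csf1r averaged 0.12 and -0.13 over the 9 arrays against 1.18 for the brightest, so the probes of this gene disagree. Irf8, a transcription factor of the monocyte lineage, averaged 2.65 ± 1.06 on HDC-A, 2.22 ± 0.74 on HDC-M and 2.69 ± 0.11 on HDC-S arrays (SD, n = 3). Its low arrays were HDC-A replicate 1 at 1.44 and HDC-M replicate 3 at 1.37. Its dimmer probe averaged 0.39 over the arrays against 2.52. Of the 12 macrophage genes with more than 1 probe kept, 7 had probes that differed by over 1 on the log2 scale.

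Spi1, which encodes PU.1, the transcription factor that macrophage development needs, could not be read in tumours. On 0 of 9 arrays was it marked well above background in Cy5, where it read 1.00 to 1.09 times the negative control median. Its reference signal lay above the 95th percentile of the negative controls on all 9 arrays, and its log2 ratio averaged -0.35. PU.1 is known to bind purine-rich sites with GGAA at their core, and Csf1r and Fc receptor genes are among its known targets. The 7-base form GAGGAAG was searched on both strands in RefSeq promoter windows (assembly GRCm38.p6, 250 bases before to 50 after each start site), which were found for 26 of the 37 genes. It was present in 9 of these 26 genes (34.6%) and in 15.4% of 27025 genes overall. In the 100 bases just before a start site it was present in 7 of the 26 genes (26.9%) and in 5.48% of all genes. Median GC content of the windows was 47.5% for the macrophage genes and 52.7% overall.

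The 7 stretches are printed because these genes hold the site next to the start and include Fcgr3, the gene that followed the other macrophage genes most closely across arrays. Each is the 100 bases before the start site, 5′ to 3′ on the strand of the gene, and capitals mark GAGGAAG or its reverse complement CTTCCTC. Fcgr3 is at chr1:171059404-171059503 on the minus strand, Mrc1 at chr2:14229314-14229413 on the plus strand, Fcgr1 at chr3:96293970-96294069 on the minus strand and Laptm5 at chr4:130913216-130913315 on the plus strand. Pf4 is at chr5:90772335-90772434, Itgam at chr7:128062540-128062639 and Trem2 at chr17:48346301-48346400, all on the plus strand.
Fcgr3: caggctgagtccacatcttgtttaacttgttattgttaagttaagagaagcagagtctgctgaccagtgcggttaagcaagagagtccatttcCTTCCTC
Mrc1: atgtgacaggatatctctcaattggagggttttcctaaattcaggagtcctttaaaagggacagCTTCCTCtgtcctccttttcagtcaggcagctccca
Fcgr1: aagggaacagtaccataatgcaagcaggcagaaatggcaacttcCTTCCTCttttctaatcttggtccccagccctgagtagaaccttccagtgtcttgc
Laptm5: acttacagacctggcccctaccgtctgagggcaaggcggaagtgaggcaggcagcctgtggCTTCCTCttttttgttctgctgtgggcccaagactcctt
Pf4: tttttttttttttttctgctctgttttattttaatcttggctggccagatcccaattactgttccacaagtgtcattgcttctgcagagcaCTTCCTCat
Itgam: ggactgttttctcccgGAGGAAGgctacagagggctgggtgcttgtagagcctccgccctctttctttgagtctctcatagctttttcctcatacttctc
Trem2: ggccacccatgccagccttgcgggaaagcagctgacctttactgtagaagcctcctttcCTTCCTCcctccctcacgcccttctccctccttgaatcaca
In Fcgr3, Mrc1, Fcgr1, Laptm5, Pf4 and Trem2 the site reads CTTCCTC, and in Itgam it reads GAGGAAG. A match describes these letters only, and no binding was measured.

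The pan-macrophage surface and granule genes were higher in tumours than in culture in all 3 groups, with the exception of Laptm5 in HDC-M. A second kept probe of Laptm5 did pass there, at 0.35 (adjusted p = 0.0227, limma), so this exception depends on the probe. Lyz2, the lysozyme of macrophages and granulocytes, read 5.08, 5.97 and 5.00 on the HDC-A arrays, 5.27, 5.31 and 4.55 on the HDC-M arrays and 5.36, 5.51 and 4.84 on the HDC-S arrays. Averaged over the 9 arrays this is 37-fold above the reference. The second probe of Lyz2 averaged 0.89, and both probes passed as higher in every group.

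Adgre1, the surface receptor by which mouse macrophages are usually recognised, read 2.60, 3.74 and 3.04 on the HDC-A arrays, 3.21, 3.32 and 1.81 on the HDC-M arrays and 3.32, 3.51 and 2.63 on the HDC-S arrays. Its reference signal lay below the 95th percentile of the negative controls on every array, so its average over the 9 arrays is a bound, at least 8.06-fold above the reference. The groups overlapped, with HDC-A replicate 2 highest and HDC-M replicate 3 lowest. Adgre1 in HDC-S differed from HDC-M by 0.37 with a 95% interval of -0.59 to 1.33, and by -0.12 without HDC-M replicate 3.

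Cd68, a lysosomal membrane protein of phagocytes, read 0.92, 1.23 and 1.11 on the HDC-A arrays, 1.27, 1.40 and 0.49 on the HDC-M arrays and 1.55, 1.41 and 1.13 on the HDC-S arrays. Ptprc, the CD45 antigen of all white blood cells, read 1.48, 2.70 and 2.10 on the HDC-A arrays, 1.80, 2.24 and 0.83 on the HDC-M arrays and 1.65, 2.24 and 2.07 on the HDC-S arrays. In both genes the groups overlapped and HDC-M replicate 3 was the lowest array. Ptprc was at least 3.65-fold above the reference, whose signal was at background level, and its second kept probe averaged 0.13.

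In the other genes of this block HDC-M replicate 3 was again the lowest array. Aif1, a calcium-binding protein of macrophages, averaged 2.82 over the 9 arrays, Mpeg1, a pore-forming protein of phagocytes, 2.80, and Ms4a7, a membrane protein of macrophages, 2.22. The second kept probe of Mpeg1 averaged 0.13 and did not pass against the reference in any group. Those of Aif1 and Ms4a7 averaged 1.79 and 2.07. Itgam, the CD11b integrin chain, averaged 0.30 and Laptm5, a lysosomal membrane protein of blood cells, 0.43. Both had dim tumour signals, at 1.09 to 1.42 and 1.40 to 2.31 times the negative control median, and Itgam was at least 1.06-fold above the reference. Laptm5 was highest on HDC-S replicate 1, at 0.99, and the other 4 were highest on HDC-A replicate 2.

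The 3 chains of complement C1q, which opens the classical complement pathway and is made largely by macrophages, were each higher in tumours than in culture in all groups. C1qa read 2.00, 2.74 and 2.42 on the HDC-A arrays, 2.20, 2.42 and 1.12 on the HDC-M arrays and 2.09, 2.50 and 2.35 on the HDC-S arrays. C1qb read 1.19, 2.12 and 1.69 on the HDC-A arrays, 1.46, 1.52 and 0.61 on the HDC-M arrays and 1.34, 1.70 and 1.51 on the HDC-S arrays. C1qc averaged 3.27 over the arrays, from 2.29 to 3.85. All 3 chains were highest on HDC-A replicate 2 and lowest on HDC-M replicate 3, and in none were the groups apart. C1qb differed between HDC-A and HDC-M by 0.47 (SE 0.27, adjusted p = 0.464, limma), and by 0.18 without HDC-M replicate 3, 0.24 without HDC-A replicate 2 and 0.71 without HDC-A replicate 1.

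The Fc receptors and the adaptors that carry their signal were likewise higher in tumours in every group. Tyrobp, the DAP12 adaptor, read 1.85, 2.89 and 2.54 on the HDC-A arrays, 2.60, 2.86 and 1.31 on the HDC-M arrays and 2.69, 2.74 and 2.36 on the HDC-S arrays. Trem2, a lipid-sensing receptor that signals through Tyrobp, read 2.40, 3.34 and 2.63 on the HDC-A arrays, 2.65, 2.63 and 1.46 on the HDC-M arrays and 2.78, 2.76 and 2.54 on the HDC-S arrays. Both were highest on HDC-A replicate 2 and lowest on HDC-M replicate 3, and the groups overlapped. Trem2 in HDC-A stood 0.54 above HDC-M (SE 0.32, adjusted p = 0.474, limma), 0.15 above it without HDC-M replicate 3 and 0.27 without HDC-A replicate 2. After scaling between arrays it was -0.067. The dimmer probe of Trem2 averaged 1.00 over the arrays against 2.58.

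Fcgr1, the high-affinity receptor for immunoglobulin G, averaged 2.93 over the 9 arrays. Fcgr3, a low-affinity receptor, averaged 1.78, and Fcer1g, the signalling chain they share, averaged 2.67. The range over arrays was 1.74 to 3.53 for Fcgr1, 0.80 to 2.23 for Fcgr3 and 1.68 to 3.23 for Fcer1g, in each case from HDC-M replicate 3 to HDC-A replicate 2.

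The endocytic and scavenger receptors varied more from gene to gene. Mrc1, the mannose receptor, read 1.40, 2.14 and 2.01 on the HDC-A arrays, 1.57, 1.30 and 0.94 on the HDC-M arrays and 2.09, 2.41 and 1.15 on the HDC-S arrays. Cd163, the scavenger receptor for haemoglobin bound to haptoglobin, read 0.73, 1.65 and 0.49 on the HDC-A arrays, 0.83, 0.44 and 0.17 on the HDC-M arrays and 1.44, 1.81 and 0.24 on the HDC-S arrays. Both had their highest value on HDC-S replicate 2, and the third HDC-S pool lay well below the other two. Mrc1 stood higher in HDC-S than HDC-M by 0.61 (SE 0.32, adjusted p = 0.419, limma), with an interval of -0.10 to 1.33, and by 0.45 without HDC-M replicate 3, 0.35 without HDC-S replicate 2 and 0.98 without HDC-S replicate 3. Mrc1 in HDC-A exceeded HDC-M by 0.58 (adjusted p = 0.432, limma), and by 0.41 without HDC-M replicate 3. Cd163 stood higher in HDC-S than HDC-M by 0.68 (SE 0.41, adjusted p = 0.491, limma), with an interval of -0.23 to 1.60. This difference was 0.53 without HDC-M replicate 3, 0.36 without HDC-S replicate 2 and 1.14 without HDC-S replicate 3. Mrc1 was at least 3.14-fold above the reference.

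Marco, a scavenger receptor that binds bacteria, read 0.75, 2.88 and 1.90 on the HDC-A arrays, 1.36, 1.50 and 0.50 on the HDC-M arrays and 1.09, 1.15 and 1.06 on the HDC-S arrays. The HDC-A pools spanned all HDC-S values and the HDC-M values except that of replicate 3, with SDs of 1.07 in HDC-A and 0.05 in HDC-S tumours. Marco in HDC-S lay at -0.74 from HDC-A (SE 0.45, adjusted p = 0.437, limma), and at -1.29 without HDC-A replicate 1 and -0.22 without HDC-A replicate 2. Marco in HDC-A exceeded HDC-M by 0.72, by 1.27 without HDC-A replicate 1, by 0.20 without HDC-A replicate 2 and by 0.41 without HDC-M replicate 3, and did not pass in any of these.

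Msr1, the class A scavenger receptor, averaged 0.62 over the arrays and ranged from 0.16 to 1.00. Siglec1, the sialic acid receptor of tissue macrophages also called CD169, averaged 0.36, and its tumour signal stood at 1.10 to 1.52 times the negative control median. Both passed as higher in tumours in all 3 groups, and Siglec1 by at least 1.09-fold against a reference at background level.

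Of the receptors for microbial patterns, Tlr4 stood apart from all other macrophage genes kept. Tlr4, the receptor for bacterial lipopolysaccharide, read -0.41, -0.69 and -0.56 on the HDC-A arrays, -0.68, -0.65 and -0.55 on the HDC-M arrays and -0.69, -0.72 and -0.86 on the HDC-S arrays. Every array showed less Tlr4 signal from tumour than from cultured cells, and the reference signal stood at 3.41 to 5.44 times the negative control median. By limma Tlr4 was lower in tumours by a log2 ratio of -0.55 in HDC-A (adjusted p = 3.0e-05), -0.63 in HDC-M (adjusted p = 1.5e-05) and -0.76 in HDC-S (adjusted p = 4.0e-06). With each array centred on its median in place of loess these ratios were -0.16, 0.12 and -0.37, and none passed, so the direction in HDC-M depends on this choice. In HDC-S tumours Tlr4 lay at -0.20 from HDC-A (SE 0.08, interval -0.39 to -0.02, adjusted p = 0.215, limma) and at -0.13 from HDC-M (adjusted p = 0.530, limma), or -0.09 without HDC-M replicate 3. The HDC-S values lay below all those of both other groups, by under the last printed digit at the closest pair. Without HDC-A replicate 1 the difference from HDC-A was -0.13, and without HDC-S replicate 3 that from HDC-M was -0.08. After scaling between arrays Tlr4 in HDC-S was 0.047 above HDC-M.

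Tlr2, the receptor for bacterial lipoproteins, read 0.89, 1.11 and 1.01 on the HDC-A arrays, 0.87, 0.82 and 0.27 on the HDC-M arrays and 1.02, 1.01 and 0.66 on the HDC-S arrays. All HDC-A values lay above all HDC-M values. Tlr2 in HDC-A exceeded HDC-M by 0.35 (SE 0.16, interval -0.01 to 0.71, adjusted p = 0.340, limma) and by 0.16 without HDC-M replicate 3. Cd14, the co-receptor of Tlr4 for lipopolysaccharide, averaged 0.78 over the arrays. Clec7a, the beta-glucan receptor Dectin-1, averaged 1.90, was at least 3.27-fold above a reference at background level, and read 0.46 on HDC-M replicate 3 against 1.57 or more on every other array. Clec7a in HDC-A stood 0.19 above HDC-M and -0.39 from it without that array.

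Among the effectors of activation, Arg1 and Il1b had their highest values in HDC-S tumours. Arg1, the arginase of repair-type macrophages, read 0.57, 0.81 and 0.95 on the HDC-A arrays, 0.80, 0.80 and 0.35 on the HDC-M arrays and 2.02, 0.95 and 1.22 on the HDC-S arrays. The HDC-S values lay above all those of both other groups, although the lowest of them and the highest HDC-A value are both 0.95 after rounding. Arg1 stood higher in HDC-S than HDC-M by 0.75 (SE 0.25, interval 0.19 to 1.30) and than HDC-A by 0.62 (SE 0.25, interval 0.07 to 1.18), and neither passed (adjusted p = 0.208 and 0.199, limma). Without HDC-M replicate 3 the first difference was 0.60 (adjusted p = 0.350, limma). Without HDC-S replicate 1, the array at 2.02, the differences were 0.43 from HDC-M and 0.31 from HDC-A. Arg1 in tumours was at least 1.77-fold above a reference at background level.

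Il1b, the inflammatory cytokine interleukin 1 beta, read 0.61, 1.27 and 0.96 on the HDC-A arrays, 1.07, 1.06 and 0.17 on the HDC-M arrays and 1.61, 1.16 and 1.42 on the HDC-S arrays. All HDC-S values lay above all HDC-M values, and HDC-S and HDC-A overlapped. Il1b stood higher in HDC-S than HDC-M by 0.63 (SE 0.25, interval 0.07 to 1.19, adjusted p = 0.288, limma), and by 0.33 without HDC-M replicate 3. Its difference from HDC-A was 0.45 (adjusted p = 0.380, limma), and 0.29 without HDC-A replicate 1. Il1b in tumours was at least 2.01-fold above the reference.

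Nos2, the inducible nitric oxide synthase of inflammatory macrophages, was not well above background on any array, and its Cy5 signal stood at 0.93 to 1.04 times the negative control median. Its ratios therefore carry no order: -0.09, -0.10 and -0.05 on the HDC-A arrays, -0.19, -0.17 and -0.04 on the HDC-M arrays and -0.06, -0.06 and -0.09 on the HDC-S arrays. Cybb, the membrane subunit of the phagocyte NADPH oxidase, averaged 0.75 over the arrays and passed as higher in tumours in every group. Its dimmer probe averaged 0.08.

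The remaining genes are secreted or lysosomal products. Pf4, the chemokine platelet factor 4, made by megakaryocytes and also by macrophages, read 3.13, 3.54 and 3.29 on the HDC-A arrays, 2.63, 2.93 and 2.10 on the HDC-M arrays and 3.61, 3.31 and 2.82 on the HDC-S arrays. All HDC-A values lay above all HDC-M values, and HDC-S overlapped both. Pf4 in HDC-A exceeded HDC-M by 0.77 (SE 0.24, interval 0.23 to 1.30, adjusted p = 0.153, limma) and by 0.54 without HDC-M replicate 3 (adjusted p = 0.290). The same difference after scaling between arrays was -0.063. Pf4 stood higher in HDC-S than HDC-M by 0.69 (SE 0.24, interval 0.16 to 1.23, adjusted p = 0.219, limma), by 0.47 without that array and by 0.0049 after scaling between arrays.

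Apoe, a lipid carrier that macrophages secrete, read 0.87, 1.19 and 0.79 on the HDC-A arrays, 1.04, 1.00 and 0.83 on the HDC-M arrays and 1.17, 1.20 and 0.71 on the HDC-S arrays. The cultured melanoma cells themselves gave a strong Apoe signal, 46.5 to 57.9 times the negative control median. Apoe in HDC-S differed from HDC-M by 0.07, with an interval of -0.26 to 0.39, and by 0.00 without HDC-M replicate 3. Lgmn, a lysosomal protease, read 1.76, 2.61 and 2.24 on the HDC-A arrays, 2.04, 2.12 and 1.65 on the HDC-M arrays and 1.91, 2.12 and 1.85 on the HDC-S arrays. Its reference signal stood at 2.57 to 3.19 times that median, and the groups overlapped.

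Between the groups no macrophage gene passed. HDC-S against HDC-M is the comparison for enhanced histamine production: 0 of 35 genes passed by limma, where 0.681% of all probes did, and 3 had an unadjusted p under 0.05 (14.5% of all probes). The groups did not overlap for 3 genes, Arg1, Il1b and Tlr4, against 22.3% of all probes. HDC-A against HDC-M, the comparison for diminished production, uses the same HDC-M arrays: again 0 passed (1.44% of all probes), 1 had an unadjusted p under 0.05 (15.5%), and the groups were apart for 2 genes, Pf4 and Tlr2 (20.9%). In HDC-S against HDC-A 0 passed (5.26% of all probes), 2 had an unadjusted p under 0.05 (19.4%), and the groups were apart for 2 genes, Arg1 and Tlr4 (24.4%). The half-width of the 95% interval, which carries no adjustment over probes, had a median of 0.66 over the 35 genes. With the adjustment, a difference had to exceed its half-width by more to pass. Pf4 in HDC-A against HDC-M, at 0.77 with an interval of 0.23 to 1.30, did not pass. The SE of a difference had a median of 0.29 for the macrophage genes and 0.08 for all probes.

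**Figure D2:**
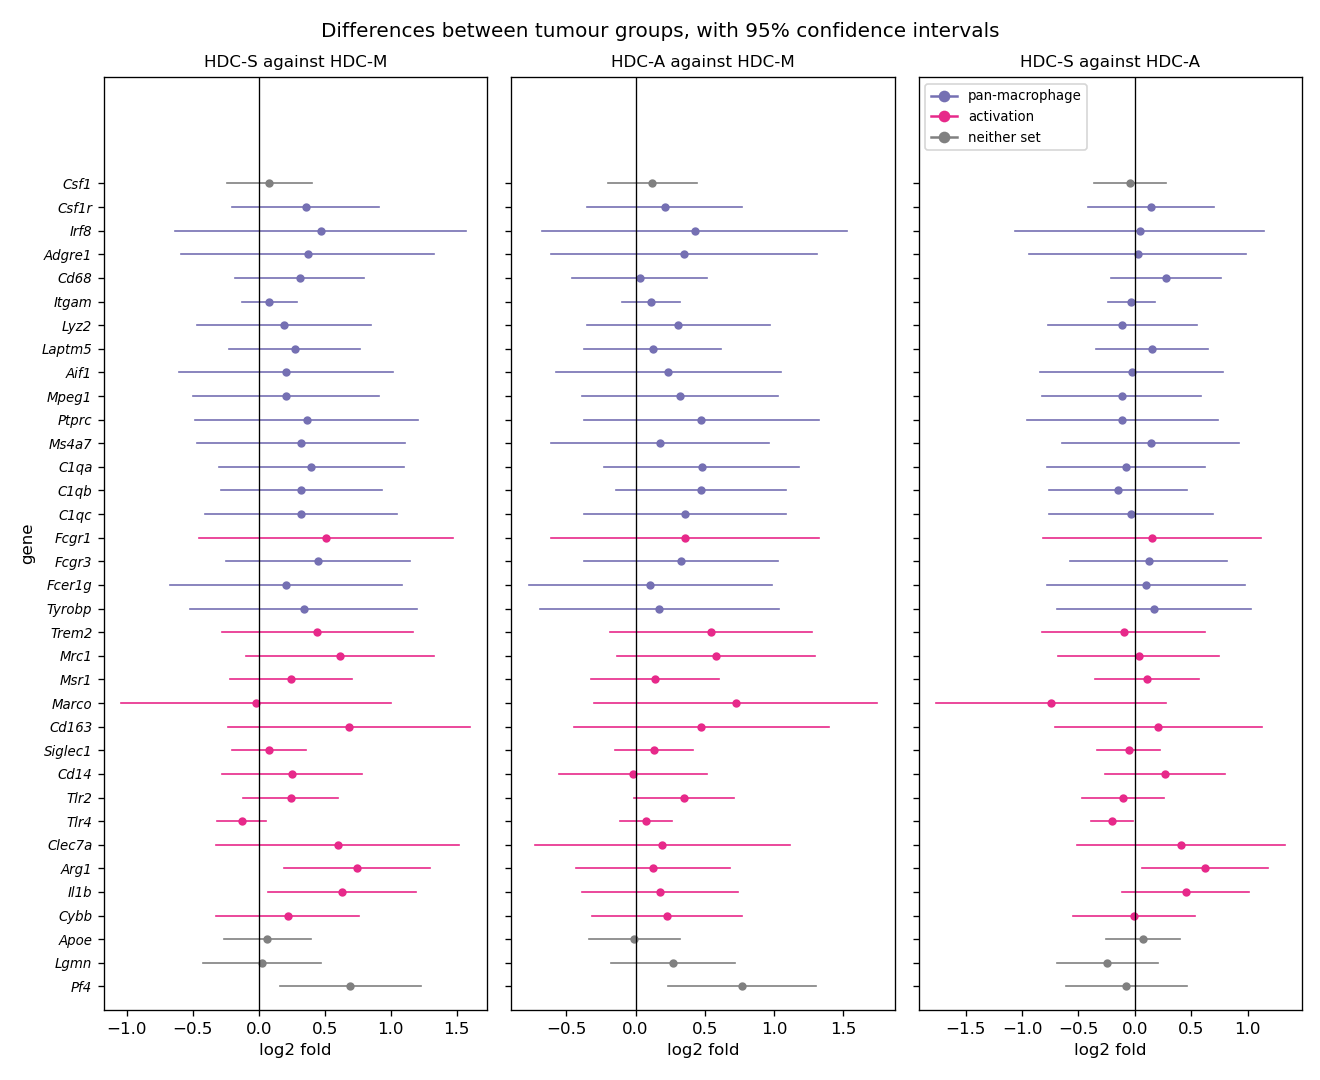
Log2 difference between groups for each macrophage gene in the 3 comparisons, with points for the fitted difference and bars for its 95% confidence interval; colours are the pan-macrophage set, the activation set and genes of neither. Most points lie right of 0 in the panels against HDC-M, with medians of 0.32 and 0.24, and on both sides of 0 in HDC-S against HDC-A, with a median of 0.02.

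The signs of these differences leaned one way against HDC-M, in a manner that depended on 1 array and on the scaling. The mean was higher in HDC-S than in HDC-M for 33 of 35 genes (53.2% of all probes), with a median difference of 0.32 beside 0.01 for all probes. HDC-A exceeded HDC-M for 33 of 35 (51.9% of all probes), with a median of 0.24. Between HDC-S and HDC-A 18 of 35 were higher (51.4% of all probes), with a median of 0.02. After scaling between arrays the lean was not kept: HDC-S exceeded HDC-M for 21 of 35 genes with a median of 0.04, and HDC-A exceeded HDC-M for 14 of 35 with a median of -0.03. Without HDC-M replicate 3 the counts were 22 of 35 for HDC-S (50.8% of all probes) and 17 of 35 for HDC-A (49.5%), and the medians were 0.02 and -0.0013. By limma 0 genes then passed in either, where 0.354% and 0.558% of all probes did, and 0 and 1 had an unadjusted p under 0.05. Other arrays also moved the medians: without HDC-A replicate 1 the HDC-S against HDC-A median was -0.17 with 7 of 35 genes higher, and without HDC-A replicate 2 it was 0.20 with 30 higher. On the arrays of replicates 1 and 2, which were scanned on 1 day, the medians were 0.07 for HDC-S and -0.04 for HDC-A against HDC-M. The scan of replicate 3 of each group was made on another day, with 1 array per group, so that day alone gives no test.

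Individual arrays differed more than the groups did. The mean log2 ratio over the 35 genes was 1.38, 2.14 and 1.83 on the HDC-A arrays, 1.72, 1.82 and 0.95 on the HDC-M arrays and 1.90, 1.95 and 1.61 on the HDC-S arrays. HDC-M replicate 3 was lowest, including for all 17 pan-macrophage genes, and HDC-A replicate 1 was lowest or second lowest for 25 of 35 genes. For this last count no share of all probes is at hand. HDC-A replicate 2 was highest for 19 of 35, against 14.9% of all probes.

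**Figure D3:**
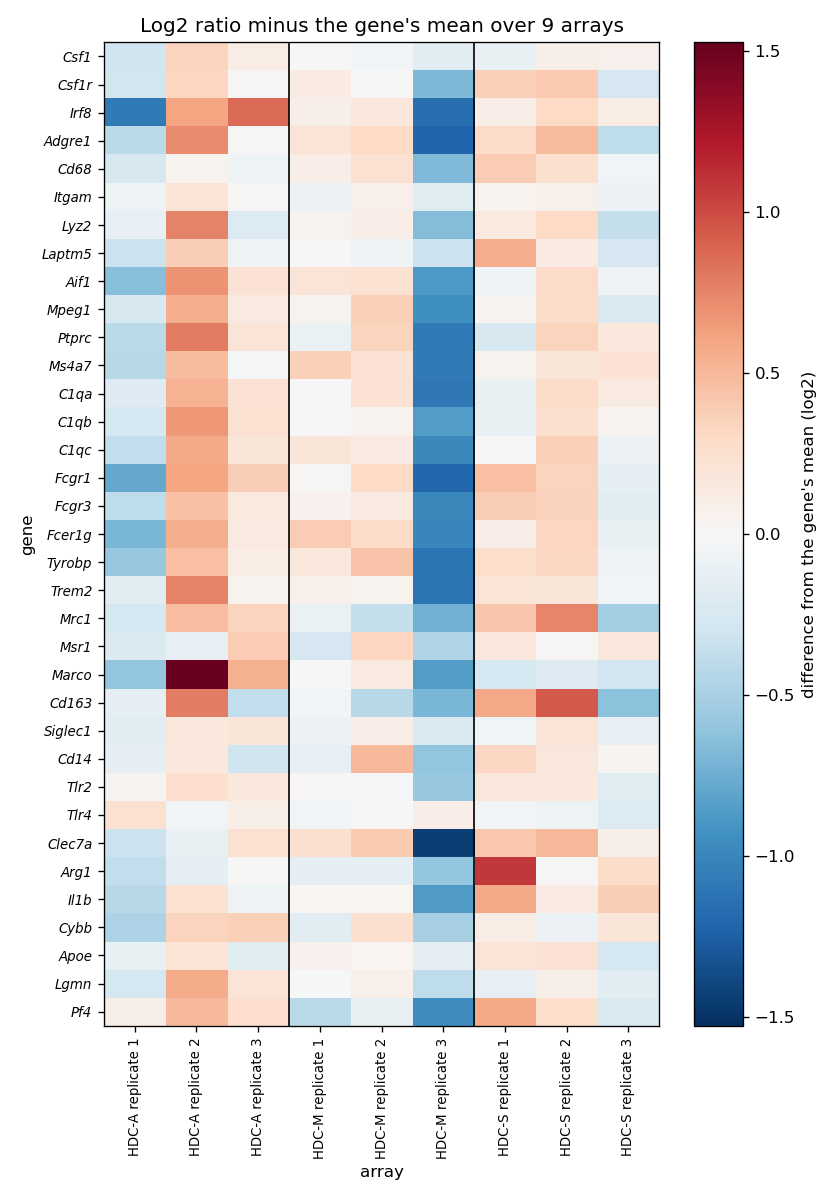
Log2 ratio of each macrophage gene on each array minus the gene's mean over the 9 arrays, as colour from blue (below the mean) to red (above), with arrays in columns by group. The column of HDC-M replicate 3 is blue for nearly all genes, that of HDC-A replicate 2 is mostly red, and Tlr4 does not follow either.

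The activation set was then set beside the pan-macrophage set. The mean of the 14 activation genes was 0.87, 1.49 and 1.28 on the HDC-A arrays, 1.10, 1.22 and 0.45 on the HDC-M arrays and 1.44, 1.36 and 1.07 on the HDC-S arrays. The mean of the 17 pan-macrophage genes was 1.80, 2.72 and 2.32 on the HDC-A arrays, 2.30, 2.39 and 1.32 on the HDC-M arrays and 2.33, 2.49 and 2.12 on the HDC-S arrays. The difference of the 2 means lay between -1.23 and -0.88 on all arrays, and the groups overlapped. In HDC-S against HDC-M the median difference was 0.35 for the activation genes, with 12 of 14 higher, and 0.32 for the pan-macrophage genes, with 17 of 17 higher, where 53.2% of all probes were. In HDC-A against HDC-M it was 0.21 for the activation genes, with 13 of 14 higher, and 0.31 for the pan-macrophage genes, with 17 of 17 higher (51.9% of all probes). In HDC-S against HDC-A the medians were 0.07 and 0.02, with 8 of 14 and 9 of 17 higher (51.4%). Without HDC-M replicate 3 the activation and pan-macrophage medians were 0.05 and -0.03 in HDC-S against HDC-M, and likewise 0.05 and -0.03 in HDC-A against HDC-M.

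When the pan-macrophage mean of each array was added to the model as a covariate, a choice made after seeing the data, 0 of 14 activation genes passed in any comparison by limma. The lowest adjusted p was 0.0807, for Marco at -0.78 in HDC-S against HDC-A. Of the 26870 probes kept, 124 passed under the covariate in HDC-S against HDC-M, 321 in HDC-A against HDC-M and 1663 in HDC-S against HDC-A. At such counts, 0 of 14 is not a result about the activation genes. Arg1 in HDC-S then exceeded HDC-M by 0.65 (adjusted p = 0.266) and Il1b by 0.41 (adjusted p = 0.229). Relative to the pan-macrophage mean of its array, Pf4 stood at 1.34, 0.82 and 0.97 on the HDC-A arrays, 0.33, 0.54 and 0.77 on the HDC-M arrays and 1.29, 0.82 and 0.70 on the HDC-S arrays. On this scale all HDC-A values of Pf4 lay above all HDC-M values, and its difference from HDC-M under the covariate was 0.59 in HDC-A (adjusted p = 0.114) and 0.50 in HDC-S (adjusted p = 0.193, limma).

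The macrophage genes moved together from array to array. Across the 9 arrays, which share the reference RNA, Pearson's r of a gene with the mean of the other macrophage genes had a median of 0.86, and 24 of 35 genes had r over 0.8, against 2.26% of all probes. Without HDC-M replicate 3 the median was 0.76 and 13 genes had r over 0.8, a count for which no share of all probes is at hand. Fcgr3 followed the others most closely, with r of 0.99, or 0.97 without that array. The genes that followed least were Tlr4, with r of -0.48, Arg1, with 0.48, and Msr1, with 0.56. These correlations are descriptions over 9 pools.

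**Figure D4:**
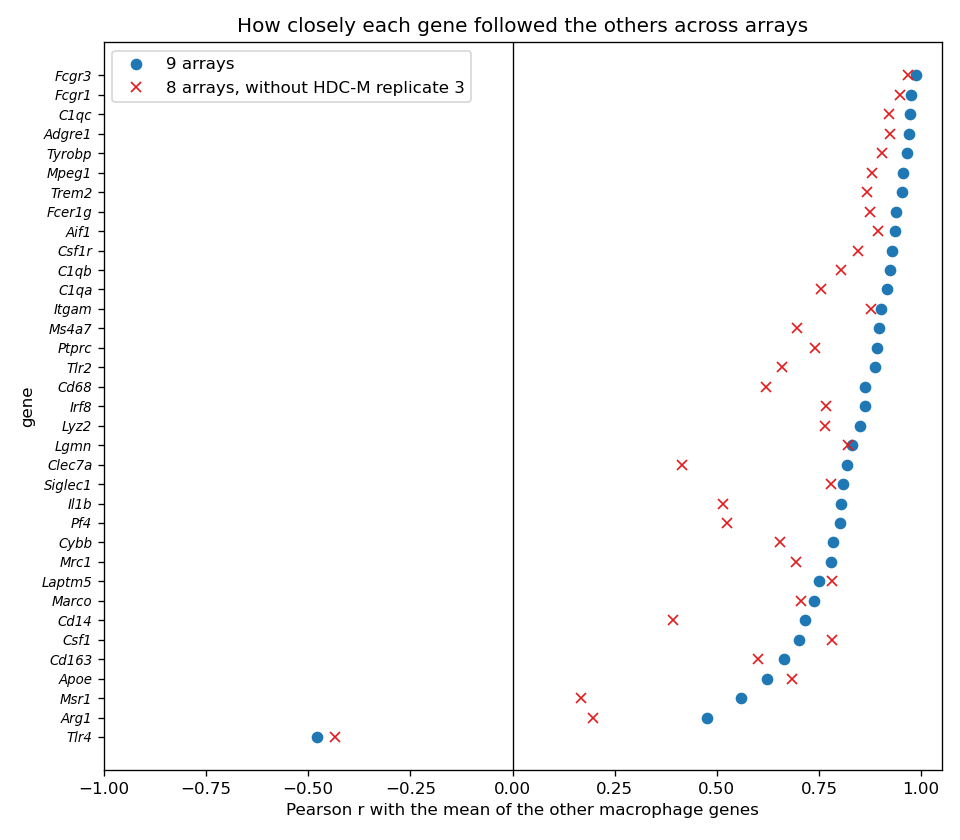
Pearson correlation of each macrophage gene with the mean of the other macrophage genes, over the 9 arrays (circles) and without HDC-M replicate 3 (crosses). Tlr4 is the only gene below 0, and 24 of the 35 circles lie above 0.8.

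The 10 genes outside the 37 with the closest pattern, by r with their mean over the 9 arrays, were Coro1a (0.98), Tbxas1, Ncf4, Ccr2, Nckap1l, P2ry6, Gvin1, Pirb, Ly6a and Pla2g15 (0.96). Of these, Coro1a encodes an actin-binding protein of white blood cells, Ncf4 a cytosolic subunit of the NADPH oxidase and Ccr2 the chemokine receptor of inflammatory monocytes. Their log2 ratios over the arrays ranged from 0.38 to 1.53 for Coro1a, from 0.74 to 2.64 for Ncf4 and from 0.35 to 1.63 for Ccr2.

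Genes of the pathways around the macrophage were read from 9 lists with 125 genes kept. None passed in HDC-S against HDC-M or in HDC-A against HDC-M by limma, and 16 and 9 had an unadjusted p under 0.05 (14.5% and 15.5% of all probes did), so these counts were not above the background. In HDC-S against HDC-A, 2 of 125 passed as higher and 4 as lower, where 2.84% and 2.42% of all probes did. In that comparison Plcg2, a phospholipase of Fc and B-cell receptor signalling, was higher in HDC-S by 0.34 (adjusted p = 0.0328) and Mmp12, the macrophage elastase, by 0.49 (adjusted p = 0.0472). Lipa, the lysosomal acid lipase, fell by 0.52 (adjusted p = 0.0115, limma). Ly96, the MD-2 protein that binds lipopolysaccharide with Tlr4, fell by 0.43 (adjusted p = 0.0163), and Tlr9, the receptor for bacterial DNA, by 0.38 (adjusted p = 0.0379). Ly96 averaged -0.52 and Lipa -0.38 over the arrays, both brighter in the cultured reference than in tumours. These adjusted p values are limma's over all probes, of which 1412 passed in this comparison and 4 with median centring.

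By list, the chemokine and growth factor list had 15 of 18 genes higher in HDC-S and 18 of 18 in HDC-A than in HDC-M, with 0 passing and 3 and 1 at an unadjusted p under 0.05. Over all probes 53.2% were higher in HDC-S and 51.9% in HDC-A than in HDC-M, and 14.5% and 15.5% had an unadjusted p under 0.05, and the counts of every list below are to be set beside these shares. Of the genes in the first list, Ccl12, a monocyte chemokine, stood 0.74 and 0.69 above HDC-M (adjusted p = 0.202 and 0.205, limma), and Csf2ra, a receptor chain for GM-CSF, 0.41 and 0.30 above it. In the complement list 8 of 9 genes were higher in each, with 1 and 1 at an unadjusted p under 0.05, and C1s1 stood 0.74 above HDC-M in HDC-S, while C2, fitted without HDC-S replicate 3, lay at -0.45 in HDC-A. Of the Fc receptor list, 15 of 19 were higher in HDC-S, with Fcgr2b, the inhibitory Fc receptor, at 0.72. In the list of alternative activation 14 of 19 were higher in HDC-S, and Stab1, a scavenger receptor of tissue macrophages, stood 0.48 above HDC-M in HDC-A (adjusted p = 0.128, limma). In the inflammatory list 11 of 13 were higher in HDC-S and 5 of 13 in HDC-A, with Il18 0.42 and 0.47 above HDC-M (adjusted p = 0.182 and 0.111, limma) and Cxcl2 at 0.15 and -0.07. In the Toll-like receptor list 7 of 12 were higher in HDC-S. Of these 12 genes, 3 had an unadjusted p under 0.05 in HDC-S and 1 in HDC-A (limma, lowest adjusted p 0.0505 and 0.0968). The lysosome list had 12 of 19 higher in HDC-S with Lamp2 at -0.05, and the oxidase list 3 of 5 with Cyba at -0.33. That of transcription factors had 4 of 11 higher, with Ikzf1 at -0.08 and Cebpb, fitted without HDC-M replicate 3, at -0.01. In HDC-A the counts higher than HDC-M in these lists were, in the same order, 10 of 12, 16 of 19, 5 of 5 and 8 of 11. They were 13 of 19 in the Fc receptor list and 12 of 19 in that of alternative activation. These lists were read on the same HDC-M arrays as the macrophage genes, so HDC-M replicate 3 enters all of them.

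Some marker lists of other cells shared the low or the high array of the macrophage genes, and others did not. The mean of 10 dendritic cell markers kept was 0.89, 1.61 and 1.40 on the HDC-A arrays, 1.39, 1.55 and 0.70 on the HDC-M arrays and 1.27, 1.50 and 1.44 on the HDC-S arrays. The mean of 12 T and NK cell markers ranged from 0.06 on HDC-M replicate 3 to 0.53 on HDC-A replicate 3. That of 9 endothelial markers ranged from 0.70 on HDC-M replicate 3 to 1.52 on HDC-A replicate 2, and that of 9 fibroblast markers from 2.04 on HDC-S replicate 3 to 4.01 on HDC-A replicate 2. HDC-M replicate 3 was thus the lowest array for dendritic, T and NK, mast, neutrophil and endothelial lists as well. The mean of 5 B and plasma cell markers was lowest on HDC-M replicate 2, at 0.06, and highest on HDC-A replicate 2, at 0.60. Mast cell and neutrophil markers were highest on HDC-M replicate 1, and the fibroblast, keratinocyte, melanocyte and muscle lists were lowest on an HDC-S array. The part of these cells in the macrophage values was not tested.

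Neutrophils also carry Lyz2, Itgam, Fcer1g and Il1b. Of 11 neutrophil markers 4 were kept, with a mean of 0.73, 0.80 and 0.34 on the HDC-A arrays, 2.20, 1.53 and 0.08 on the HDC-M arrays and 0.58, 0.41 and 1.07 on the HDC-S arrays. Ly6g, Cxcr2, Elane, Camp, Ltf, Ngp and Retnlg were not kept. Melanocyte markers stood for the tumour cells, and their mean over 7 genes was between 0.09 and 0.71 on all arrays, highest on HDC-M replicate 2. Oca2, a melanosome transporter, was lower in HDC-S than in HDC-M by a log2 difference of -1.02 (adjusted p = 0.0118) and than in HDC-A by -0.62 (adjusted p = 0.0171), and Tyr, tyrosinase, was lower than in HDC-A by -0.48 (adjusted p = 0.0121, limma). The list as a whole did not follow these genes against HDC-A: 4 of 7 markers were higher in HDC-S, with a median of 0.0034. Against HDC-M 1 of 7 was higher in HDC-S, with a median of -0.13. Over all probes 0.242% passed as lower in HDC-S than in HDC-M, and 2.42% as lower than in HDC-A. Keratinocyte markers averaged 1.93 ± 0.59 on HDC-A, 2.38 ± 0.57 on HDC-M and 0.88 ± 0.70 on HDC-S arrays (SD, n = 3), and skeletal muscle markers 2.55 ± 0.88, 1.34 ± 0.38 and 1.44 ± 0.93. Against HDC-M, 0 of 8 keratinocyte markers were higher in HDC-S and 0 in HDC-A, with medians of -1.54 and -0.51. Of these 8, 6 and 0 had an unadjusted p under 0.05 (limma). Of 6 muscle markers, 4 were higher in HDC-S and 6 in HDC-A, with medians of 0.16 and 1.19, and 0 and 4 had such a p. Over all probes 53.2% and 51.9% were higher, and 14.5% and 15.5% had such a p. None of these markers passed, and both lists differed between pools as well. Their part in the macrophage values was not tested either.

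**Figure D5:**
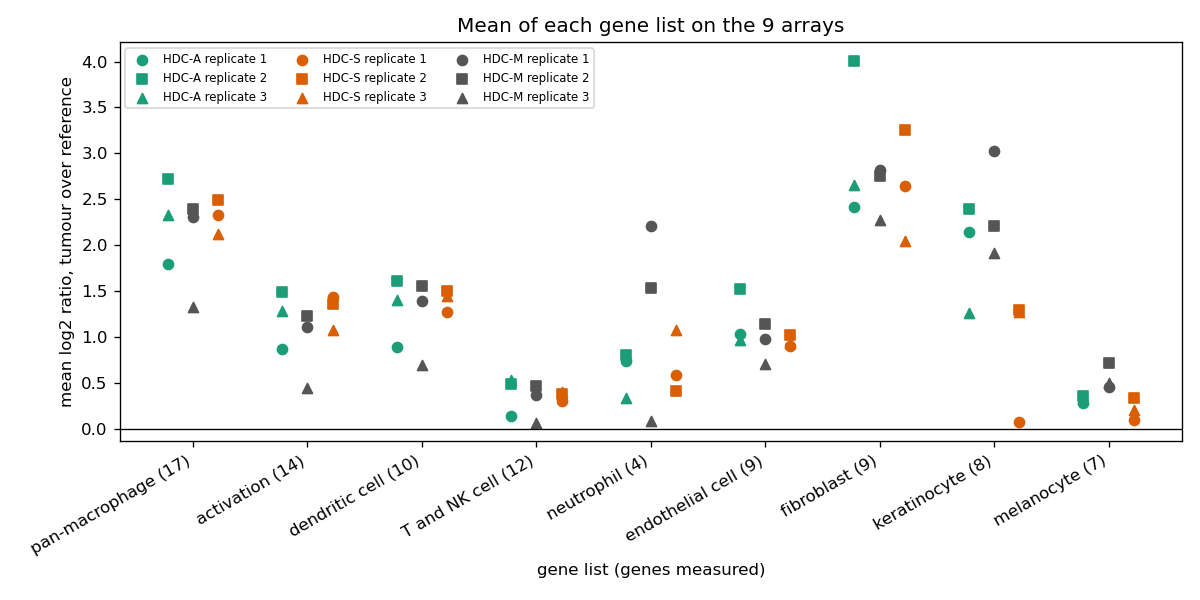
Mean log2 ratio of tumour over reference for the pan-macrophage and activation sets and for marker lists of other cell types, 1 point per array, with colours for groups, shapes for replicates and the number of genes measured in brackets. HDC-M replicate 3 is the lowest point for the pan-macrophage, activation, dendritic cell, T and NK cell, neutrophil and endothelial lists, and HDC-A replicate 2 is the highest for the pan-macrophage, activation, dendritic cell and endothelial lists.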

How the data were processed

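Per the labels, each array was hybridised with Cy5-labelled RNA of 2 pooled tumours and Cy3-labelled RNA of cultured HDC-M cells. The deposited files hold spot intensity values with quality marks of other kinds, made with Agilent Feature Extraction 8.5.1.1, per the file headers. The authors' deposited value table holds log10 ratios and equalled the scanner software's log10 ratios at all 43790 spots of each array, so its direction is Cy5 over Cy3. The genome build is not given in the sources used here.

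Mean and background intensities were corrected by normexp (offset 50), normalised within arrays by loess with control and outlier spots at weight 0, and averaged per probe (R 4.3.3, limma 3.58.1). Probes well above background in Cy5 on at least 3 of 9 arrays were kept, 26870 of 41174. The Cy3 mark was not used, since 95.2% to 99.7% of negative controls carried it. Where the reference did not exceed the 95th percentile of the negative controls on any array, a fold is a bound, with that percentile in place of the reference. One limma model was fitted to the 9 arrays with no block, and p-values were adjusted by Benjamini-Hochberg over all kept probes at 0.05. The model was also run on simulated data with independent errors per probe, which cannot show how it behaves for genes that move together. Probes were named through current accessions (22072), other accessions (142) or symbols in the probe's description (1398), and 17562 stayed unnamed. Values on every array are given for lineage and effector genes and for the macrophage genes with the lowest p in each comparison, with summaries for the rest, and for genes of the pathway lists that passed or had the 2 lowest p of their list. For the Toll-like receptor list against HDC-M, only counts and the lowest adjusted p are given. The macrophage genes and all lists were chosen with earlier results of these data known. Alternatives changed the background correction, normalisation, filter, block, scan day and arrays. One gene of the pathway lists that passed is not reported here.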

Additional observations from a re-analysis of the deposited data

How the results depend on the processing

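Across 24 alternatives, 0 macrophage genes passed in each comparison between groups (limma), and the lowest adjusted p ranged from 0.128 to 0.548 in HDC-S against HDC-M, 0.0817 to 0.575 in HDC-A against HDC-M and 0.0844 to 1.00 in HDC-S against HDC-A. Leaving out 1 array at a time gave median log2 differences of 0.02 to 0.49, -0.0013 to 0.46 and -0.17 to 0.20 in the same order. In HDC-M tumours against the reference it gave 26 to 32 genes passing, with no share of all probes at hand, and medians of 1.12 to 1.49. That median, 1.27, was 2.84 with the scanner software's ratios, 2.84 with the authors' value table and 1.76 with median centring. After scaling between arrays, Tlr4 in HDC-S against HDC-M was 0.047, Pf4 in HDC-A against HDC-M -0.063 and Trem2 in HDC-A against HDC-M -0.067. The cause was not tested. With median centring the median of all probes was -0.12 in HDC-S and -0.11 in HDC-A against HDC-M.

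Over all probes, the counts passing (183, 387 and 1412 in the order above) were 7, 18 and 392 with the scanner software's ratios, 5, 2 and 4 with median centring, 37, 50 and 119 with scaling, and 603, 599 and 1496 with array weights. With the replicate number as a block, 0 macrophage genes passed in each comparison (limma, lowest adjusted p 0.147, 0.0956 and 0.221), where 70, 187 and 1123 of all probes did. In HDC-M against the reference 32 macrophage genes passed with this block, with no share of all probes at hand. Arrays of different groups with the same number had correlations of -0.19 to 0.55 in their deviations, over 0.1 in 4 of 9 pairs. Arrays with other numbers had correlations of -0.32 to 0.29. These ranges overlapped and the highest value came from arrays with the same number, so this check cannot decide whether the numbers pair the samples. Dim probes limit Itgam, Laptm5 and Siglec1, and Spi1 and Nos2 could not be read in tumours.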
